A study of Mus musculus with 6 samples.

Results

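The 9 genes described here encode the transcription factors that specify osteoblasts and their close relatives, namely Runx2, Sp7, Dlx3, Dlx5, Dlx6, Msx1, Msx2, Runx1 and Runx3. They were chosen by name, as the rows of the deposited expression table whose Ensembl identifier carries 1 of these symbols in the GENCODE M21 annotation, and all 9 were among the 29616 genes of the table. The RNA came from bone cells of C57BL/6 mice that were 8 weeks old at the start. In the treated group, the mice received dexamethasone, a synthetic glucocorticoid, at 0.08 µg/g every day for 4 weeks, and the other group is labelled control. The paper names saline as the control of its dexamethasone-treated mice, and elsewhere writes of non-treated controls. Each group had 3 libraries, here called control and dexamethasone replicates 1 to 3. According to the text of the study, the cells were sorted by staining for Osteocalcin, a bone matrix protein, from bones freed of marrow, while the sample labels name only bone cells. Whether a library held the cells of 1 mouse or of several was not stated in the sources used here, so the p-values measure the spread between these libraries.

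The RUNX proteins share a DNA-binding Runt domain and bind DNA together with a common partner, the core binding factor CBFβ. RUNX2 is required for osteoblasts to form, RUNX1 is best known for its role in the formation of blood cells, and RUNX3 for roles in lymphocytes and sensory neurons, and both are also present in skeletal cells. SP7 (osterix) is a zinc finger factor that acts after RUNX2 and is likewise required for bone formation. DLX3, DLX5 and DLX6 are homeodomain activators that are induced by bone morphogenetic proteins (BMPs), and MSX1 and MSX2 are homeodomain factors that often act as repressors on similar DNA motifs.

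The libraries held between 72596611 and 89910728 reads assigned to genes, and a count of 0 allows up to 3 reads, which corresponds to 2.64 to 3.49 normalized counts and covers counting error only. A normalized count is the read count of a gene divided by a size factor of its library. The osteocalcin gene Bglap, whose protein was used for the sort, was at 98.2, 102 and 122 normalized counts in the control libraries and at 9.5, 12.0 and 15.1 in the dexamethasone libraries, and its near-identical copies make this count uncertain. By the rule for differential expression below, 10.6% of all genes tested were lower and 11.7% higher. Of 9 osteoblast markers, 8 were lower and 1 was higher by it, and their summed level was 2264795 to 2401868 normalized counts in control and 2107137 to 2246164 in dexamethasone libraries. This sum hides opposite changes. The mean of the higher marker, Spp1, went from 33595 to 1279674 with dexamethasone, while Col1a1 fell from 961923 to 261192 and Col1a2 from 1065431 to 516035. Of 18 haematopoietic markers, 17 were in the table and 8 had enough reads to be tested, of which 2 were higher and 2 lower. Their summed level was 235 to 282 normalized counts in control and 887 to 945 in dexamethasone libraries, and the pan-leukocyte gene Ptprc was at 1.8 to 2.9 and 2.9 to 5.8. Of 15 endothelial markers, 12 were in the table and 6 were tested, of which 1 was higher. Their summed level was 474 to 510 normalized counts in control and 580.2 to 630 in dexamethasone libraries. On the adjusted p-value alone, 4 were higher and 0 lower. Kdr, which encodes Flk1, made up most of this sum, with means of 348 and 414. Its log2 fold change was 0.25 (limma adjusted p = 0.00812), and another scaling raised the adjusted p to 0.124. Pecam1, which encodes CD31, was at 15.7 and 26.3. Its log2 fold change was 0.74 (limma adjusted p = 0.0419), with an adjusted p of up to 0.208 when a library was left out. The VE-cadherin gene Cdh5 was under the limit of 3 reads in every library. The chondrocyte list had 3 genes higher and 3 lower among the 6 tested, including Sox9 with a log2 fold change of 1.92 and Sox6 with one of -2.37, and its summed level was 46739 to 49102 in control and 28331 to 31789 in dexamethasone libraries. Within this sum, the mean of Col11a1 fell from 34474 to 4308 and that of Sox6 from 6932 to 1347. In contrast, Sox9 rose from 4609 to 17406 and Col2a1 from 1517 to 5687. Of the other cell types, 3 of 8 osteoclast, 4 of 8 adipocyte, 5 of 8 tendon and fibroblast and 4 of 6 skeletal muscle markers were tested, of which 1, 1, 0 and 0 were higher and 1, 0, 3 and 1 were lower. Of 8 osteocyte markers, 6 were tested, with 2 higher and 1 lower.

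The first question was which of the lineage factors differed between the groups. Genes were compared with limma on log2(normalized count + 1) values, and a gene with an adjusted p under 0.05 together with a log2 fold change (log2FC, dexamethasone minus control) beyond -1 or 1 was called differentially expressed. By this rule 4 of the 9 factors differed, against 22.3% of the 17442 genes tested. Runx2, Sp7 and Dlx5 were lower with dexamethasone, against 10.6% of all genes, and Runx1 was higher, against 11.7%. On the adjusted p-value alone, Dlx6, Dlx3, Msx1 and Msx2 were lower as well, which made 7 lower against 35.2% of all genes and 1 higher against 37.2%. The values of the 3 control and 3 dexamethasone libraries did not overlap for 8 factors, against 74.7% of all genes, of which 7 were lower, against 36.4%, and 1 was higher, against 38.4%. The median log2FC of the 9 factors was -0.60, beside 0.0007 for all genes tested. In these bulk samples, fewer cells of a type and less RNA per cell cannot be told apart.

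**Figure D1:**
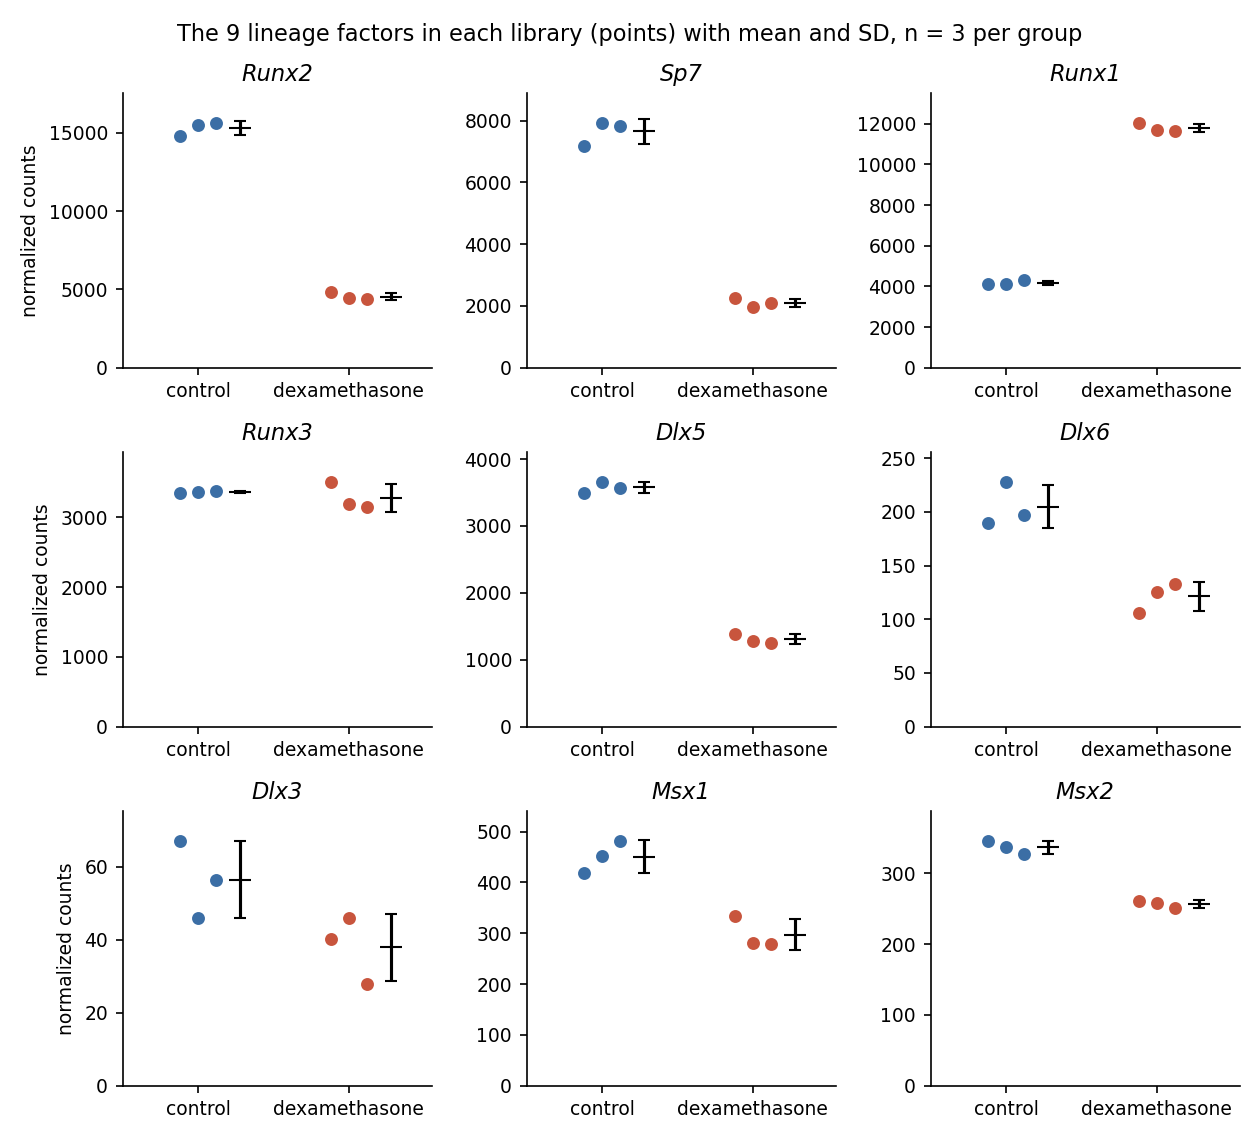
Normalized counts of the 9 lineage factors in each control (blue) and dexamethasone (red) library, with the mean and SD of each group (n = 3) beside the points and each axis starting at 0. Runx2, Sp7 and Dlx5 were lower and Runx1 was higher in all 3 dexamethasone libraries than in any control library, whereas the groups of Runx3 overlapped.

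Runx2 (ENSMUSG00000039153), the factor required for the osteoblast fate, lies on the minus strand of chromosome 17. It was at 14790.0, 15482 and 15632 normalized counts in the control libraries, in the order of their replicate numbers, and at 4823, 4443 and 4358 in the dexamethasone libraries. The groups were far apart, and each dexamethasone library was lower than every control library. The mean fell from 15301 ± 449 to 4541 ± 248 (mean ± SD, n = 3 each), which is 3.37-fold lower. The log2FC was -1.75 (standard error 0.0397, 95% interval -1.84 to -1.67, limma adjusted p = 2.42e-22), and 3.54% of the genes tested had a lower one. An antisense gene, Runx2os1, overlaps 5.87% of the exon bases of Runx2, and the strand setting of the counting was not stated.

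Sp7 (ENSMUSG00000060284), the zinc finger factor downstream of RUNX2, lies on the minus strand of chromosome 15. Its level was 7191, 7931 and 7843 normalized counts in the control libraries and 2244, 1978 and 2085 in the dexamethasone libraries. The groups did not overlap, as for Runx2. The mean fell from 7655 ± 404 to 2102 ± 133 (mean ± SD, n = 3 each) normalized counts, 3.64-fold lower, and this was the lowest log2FC of the 9 factors at -1.86 (standard error 0.0462, 95% interval -1.96 to -1.77, limma adjusted p = 1.59e-21). Within each library, the log2 ratio of Sp7 to Runx2 was -1.04, -0.96 and -0.99 in control and -1.10, -1.17 and -1.06 in dexamethasone libraries. The ratio dropped by 0.11 on the log2 scale with dexamethasone, and the groups did not overlap. An exact two-sided permutation test of this ratio gave p = 0.1, the smallest value that 3 against 3 libraries allow.

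Runx1 (ENSMUSG00000022952), on the minus strand of chromosome 16, went in the opposite direction. It was at 4123, 4111 and 4288 normalized counts in the control libraries and at 12041, 11682 and 11652 in the dexamethasone libraries. Every dexamethasone library was higher than every control library, and the replicates of a group lay close together. The mean rose from 4174 ± 99.2 to 11792 ± 216 (mean ± SD, n = 3 each), 2.83-fold higher, with a log2FC of 1.50 (standard error 0.0355, 95% interval 1.42 to 1.57, limma adjusted p = 6.15e-22). A higher log2FC was found for 7.05% of the genes tested. As RUNX1 is also a blood cell factor, the haematopoietic marker levels given above stand beside this result: with dexamethasone Cd53, which encodes a leukocyte tetraspanin, rose from 15.7 to 283 and Itgb2, a leukocyte integrin chain, from 54.6 to 503 normalized counts, whereas Laptm5 and Coro1a, both expressed in blood cells, fell from 19.2 to 6.41 and from 20.4 to 6.79. The Coro1a difference missed the threshold in limma without trend (adjusted p = 0.0634), and its log2FC of -1.77 was -1.01 without dexamethasone replicate 3. The summed level of the whole list was at most 945 normalized counts in any library, beside a Runx1 mean of 11792, and its part in the result was not tested. The transcript Gm26626 on the opposite strand overlaps 0.881% of the Runx1 exon bases.

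Runx3 (ENSMUSG00000070691), on the plus strand of chromosome 4, was at 3346, 3363 and 3383 normalized counts in the control libraries and at 3507, 3186 and 3144 in the dexamethasone libraries. Dexamethasone replicate 1 was above all control libraries and the other dexamethasone replicates were below them. The means were 3364 ± 18.5 (SD, n = 3) and 3279 ± 199 (SD, n = 3). The log2FC of -0.04 (standard error 0.0429, limma adjusted p = 0.428) had a 95% interval of -0.13 to 0.05. The call of the adjusted p-value depended on the scaling and on 1 library, since Runx3 had a log2FC of -0.15 (limma adjusted p = 0.00108) with all libraries at the same total, -0.19 (limma adjusted p = 8.51e-05) after quantile normalization and -0.09 (limma adjusted p = 0.0454) without dexamethasone replicate 1.

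The start regions of the RUNX genes are shown because Runx2 was lower and Runx1 higher, while the groups of Runx3 overlapped. RefSeq promoters of build GRCm38.p6 were matched for 5 of the 9 factors (Runx2, Msx1, Msx2, Runx1 and Runx3), and the 250 bases before the start site are given 5′ to 3′ on the strand of the gene. Capitals mark the RUNX core TGTGGT or its reverse complement ACCACA. Among these promoters, Runx1 and Runx3 each had a distal and a proximal start site, listed in that order, and for Runx3 the first of these is shown. For Runx2 only 1 start site was available, and any other start of this gene was not examined.
Runx2 (chr17:44814628-44814877, minus strand): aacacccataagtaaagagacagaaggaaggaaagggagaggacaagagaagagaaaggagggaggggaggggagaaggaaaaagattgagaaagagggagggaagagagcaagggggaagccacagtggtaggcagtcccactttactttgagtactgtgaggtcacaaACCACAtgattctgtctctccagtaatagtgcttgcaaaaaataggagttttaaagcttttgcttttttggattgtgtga
Runx1 first start (chr16:92826075-92826324, minus strand): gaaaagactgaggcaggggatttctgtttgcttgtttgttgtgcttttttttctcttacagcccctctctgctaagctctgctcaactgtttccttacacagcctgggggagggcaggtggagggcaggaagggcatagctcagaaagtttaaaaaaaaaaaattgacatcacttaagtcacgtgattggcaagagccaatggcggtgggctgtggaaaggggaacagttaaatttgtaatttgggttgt
Runx1 second start (chr16:92697330-92697579, minus strand): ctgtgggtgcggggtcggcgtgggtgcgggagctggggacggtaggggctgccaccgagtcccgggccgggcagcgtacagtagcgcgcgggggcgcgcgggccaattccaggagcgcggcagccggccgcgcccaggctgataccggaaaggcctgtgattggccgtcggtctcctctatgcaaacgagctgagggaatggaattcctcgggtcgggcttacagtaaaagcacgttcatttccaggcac
Runx3 first start (chr4:135120395-135120644, plus strand): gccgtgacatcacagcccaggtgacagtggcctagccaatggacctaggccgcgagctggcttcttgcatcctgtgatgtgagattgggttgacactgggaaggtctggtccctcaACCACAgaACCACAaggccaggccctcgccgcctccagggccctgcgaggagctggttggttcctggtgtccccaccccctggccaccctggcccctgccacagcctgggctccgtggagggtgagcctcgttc

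The Runx2 sequence held 1 RUNX core match, 80 bases before the start, and the first Runx3 sequence held 2, at 134 and 126 bases before it. Neither Runx1 sequence, nor those of Msx1 and Msx2 or the second start of Runx3, held these letters. Among all 32851 promoters of the same length, 14.0% held a match on either strand. The half-site AGAACA of the glucocorticoid receptor was found in 16.1% of all promoters and in none of the 7 start regions of the matched factors. The full site, in which that half-site is followed after 3 bases by its reverse complement TGTTCT, occurred in 0.00913% of all promoters and in none of the 7. The homeodomain core TAATTA, present in 4.84% of all promoters, was found once, before Msx2, and the GC box GGGCGG, present in 32.7%, was found before Msx1, Msx2 and the second start of Runx3. A match is a description of letters and not a binding site, and a missing one says only that the letters are not in this window.

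The shares of the RUNX genes in their own sum were composed after the values had been seen. Runx2 made up 67.0% ± 0.505 (SD, n = 3) of the normalized counts of the 3 RUNX genes in control and 23.1% ± 0.476 (SD, n = 3) in dexamethasone libraries. Runx1 went from 18.3% ± 0.326 to 60.1% ± 0.914 (SD, n = 3 each) and Runx3 from 14.7% ± 0.268 to 16.7% ± 0.441 (SD, n = 3 each). In each library of the control group Runx2 had the largest share, and in each dexamethasone library Runx1 had it. An exact permutation test gave p = 0.1 for each share, the smallest possible with 3 libraries against 3. It adds no support, since the groups of Runx2 and Runx1 were already known not to overlap. The 3 shares of a library add up to the whole, so they are not separate tests. Per kilobase of merged exons, Runx2 went from 62.9% to 23.9%, Runx1 from 12.6% to 45.6% and Runx3 from 24.4% to 30.5%. The merged exons cover all annotated transcripts of a gene and can be longer than the expressed ones, so this scale compares genes only roughly. The sum of the 3 genes was 22840 ± 532 normalized counts in control and 19612 ± 662 in dexamethasone libraries (SD, n = 3 each), a ratio of 0.859. Per kilobase, this ratio was 0.781. Cbfb, which encodes the DNA-binding partner of the RUNX proteins, had a log2FC of 0.43, under the cut-off of 1, with a limma adjusted p = 5.22e-11. The log2FC of Cbfb was 0.31 with all libraries at the same total and 0.21 after quantile normalization, with an adjusted p under 0.05 in both. The RUNX sum divided by Cbfb was 1.62 ± 0.0215 in control and 1.04 ± 0.0387 in dexamethasone libraries (SD, n = 3 each).

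**Figure D2:**
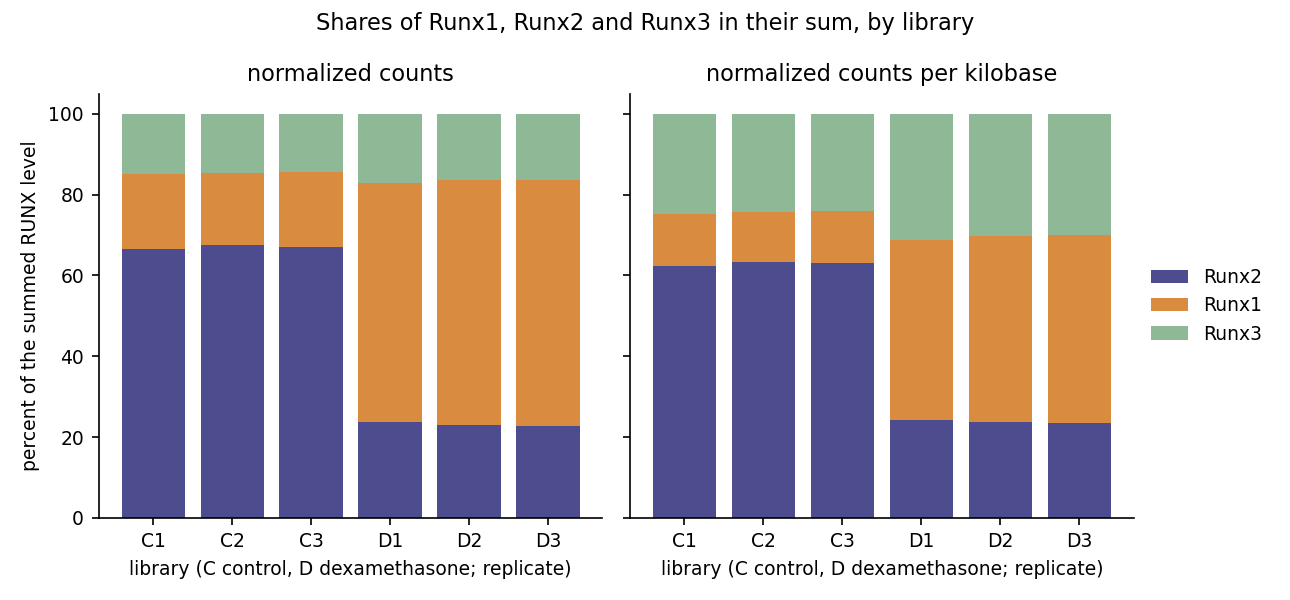
Stacked bars of the share of Runx2, Runx1 and Runx3 in the sum of the 3 genes (percent, y axis) in each of the 3 control and 3 dexamethasone libraries, from normalized counts (left) and from normalized counts per kilobase of merged exons (right). Runx2 had a mean share of 67.0% in control and Runx1 one of 60.1% in dexamethasone libraries on the left, and 62.9% and 45.6% on the right.

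The 3 DLX genes of the set had log2FC values between -1.45 and -0.57. Dlx5 (ENSMUSG00000029755), a BMP-responsive homeodomain activator on the minus strand of chromosome 6, was at 3498, 3659 and 3572 normalized counts in the control and at 1389, 1279 and 1253 in the dexamethasone libraries. The groups were well separated and the spread within each was small. The mean fell from 3576 ± 80.5 to 1307 ± 72.0 (mean ± SD, n = 3 each), 2.74-fold lower, with a log2FC of -1.45 (standard error 0.0461, 95% interval -1.55 to -1.36, limma adjusted p = 2.68e-19).

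Dlx6 (ENSMUSG00000029754), which forms a gene pair with Dlx5 and is transcribed from the opposite strand 9.24 kb away, was at 190.0, 228 and 197 normalized counts in the control and at 106, 125 and 133 in the dexamethasone libraries. All dexamethasone libraries were lower than all control libraries, at a level far below that of Dlx5. Its log2FC was -0.75 (standard error 0.126, 95% interval -1.02 to -0.49, limma adjusted p = 9.33e-06), a 1.69-fold lower mean that did not reach the cut-off of 1. The log2 ratio of Dlx6 to Dlx5 within a library was -4.12 ± 0.108 (SD, n = 3) in control and -3.42 ± 0.246 (SD, n = 3) in dexamethasone libraries. The ratio was therefore higher by 0.70 with dexamethasone (exact p = 0.1). The antisense gene Dlx6os2 overlaps 4.38% of the Dlx6 exon bases.

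Dlx3 (ENSMUSG00000001510), a DLX factor on chromosome 11 that is known from hair, tooth and bone, had the fewest reads of the 9 factors, with 73, 47 and 64 in the control and 42, 42 and 24 in the dexamethasone libraries. In normalized counts these were 67.0, 46.0 and 56.2 against 40.1, 45.8 and 27.9. The lowest control and the highest dexamethasone library were almost equal, although the groups did not overlap. The log2FC of -0.57 (standard error 0.230, 95% interval -1.05 to -0.10) had a limma adjusted p = 0.0287. It went to -0.44 when control replicate 1 was left out (limma adjusted p = 0.140) and to -0.37 when dexamethasone replicate 3 was left out (limma adjusted p = 0.157), and without control replicate 3 the adjusted p was 0.0630. It also missed the threshold of 0.05 with DESeq2, without trend, without a filter on low genes and after quantile normalization.

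The MSX genes had log2FC values nearer to 0 than that of Dlx5. Msx1 (ENSMUSG00000048450), a homeodomain repressor gene on the minus strand of chromosome 5, was at 418, 452 and 482 normalized counts in the control and at 333, 281 and 278 in the dexamethasone libraries. The highest dexamethasone library stayed below the lowest control library. The mean fell from 450.4 ± 32.0 to 297 ± 30.8 (mean ± SD, n = 3 each), a log2FC of -0.60 (standard error 0.0893, 95% interval -0.78 to -0.42, limma adjusted p = 1.76e-06). Msx2 (ENSMUSG00000021469), its relative on chromosome 13 and an early responder to BMP, was at 346, 338 and 327 against 261, 258 and 251 normalized counts. The replicates lay within narrow ranges and the groups did not overlap. The mean fell from 337 ± 9.63 to 257 ± 5.24 (mean ± SD, n = 3 each), with a log2FC of -0.39 (standard error 0.0872, 95% interval -0.57 to -0.21, limma adjusted p = 0.000326).

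**Figure D3:**
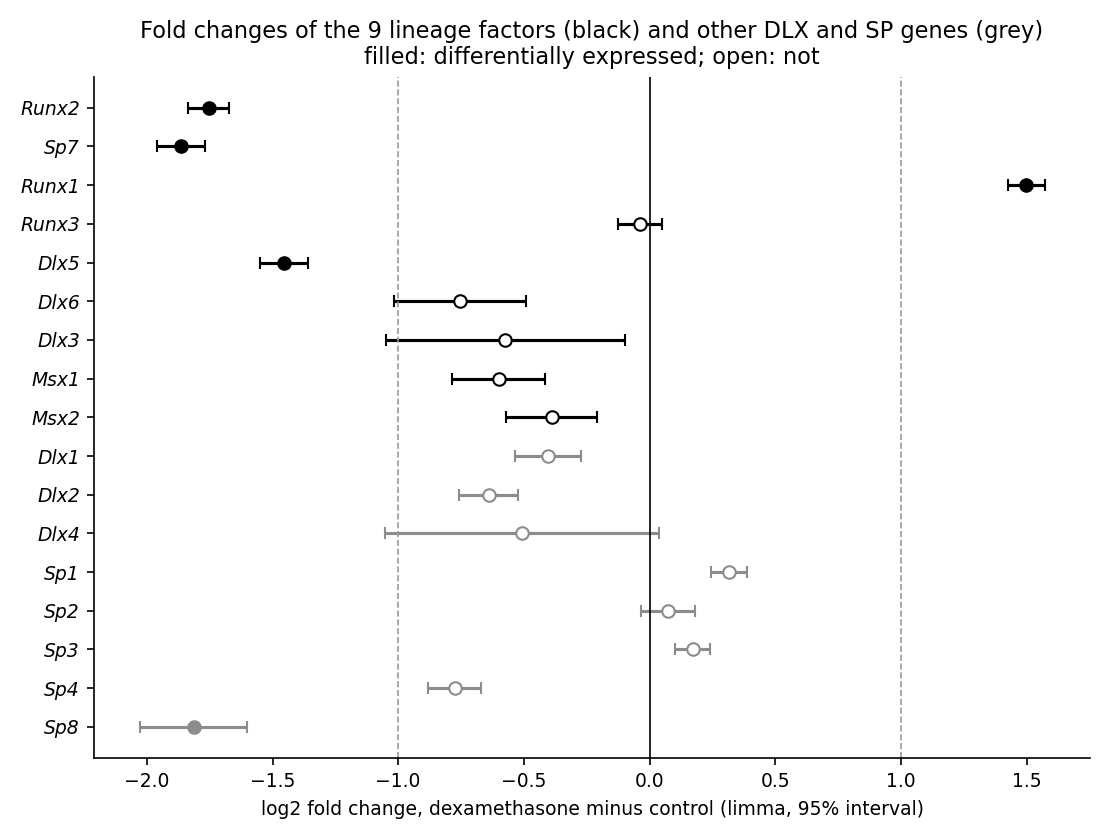
Log2 fold change, dexamethasone minus control, of the 9 lineage factors (black) and of the tested other DLX and SP genes (grey), with 95% intervals from limma and dashed lines at the cut-off of 1 in each direction. Runx2, Sp7 and Dlx5 lie between -1.86 and -1.45 and Runx1 at 1.50, while the intervals of Runx3, Dlx4 and Sp2 include 0.

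Levels were compared between the factors per kilobase of merged exons, and the order depends on these lengths. By normalized counts, Runx2 at 15301 was above Sp7 at 7655 and Runx1 at 4174 above Runx3 at 3364 in control libraries. In the control libraries the order was Sp7 at 2253 ± 119, Runx2 at 1732 ± 50.8, Dlx5 at 1580 ± 35.6, Runx3 at 672 ± 3.69 and Runx1 at 347 ± 8.25 normalized counts per kilobase (SD, n = 3 each). Msx1 at 145 ± 10.3, Msx2 at 103 ± 2.94, Dlx6 at 86.3 ± 8.52 and Dlx3 at 21.6 ± 4.03 followed, and no neighbours in this order overlapped. In the dexamethasone libraries Runx1 had the highest level, at 981 ± 18.0. It was followed by Runx3 at 655 ± 39.7, Sp7 at 619 ± 39.3, Dlx5 at 578 ± 31.8 and Runx2 at 514 ± 28.0 normalized counts per kilobase (SD, n = 3 each). The range of the libraries of Runx3 overlapped that of Sp7, and the range of Sp7 overlapped that of Dlx5. Within each single dexamethasone library, however, Runx3 was above Sp7 and Sp7 was above Dlx5. Msx1, Msx2, Dlx6 and Dlx3 kept the lower places, at 96.0 ± 9.96, 78.4 ± 1.60, 51.1 ± 5.81 and 14.5 ± 3.50. Among all genes tested, the level of Sp7 went from percentile 91.5 to 65.6, that of Runx2 from 88.3 to 61.6 and that of Dlx5 from 87.0 to 64.0, while that of Runx1 went from 55.5 to 75.8.

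The ratios between factors within a library, which do not depend on the scaling of that library, were compared for 7 pairs. The log2 ratio of Runx1 to Runx2 went from -1.87 ± 0.0358 to 1.38 ± 0.0515 (SD, n = 3 each), a difference of 3.25, and it was below 0 in every control and above 0 in every dexamethasone library. The log2 ratio of Runx3 to Runx2 went from -2.18 to -0.47, that of Dlx3 to Dlx5 from -5.98 to -5.10 and that of Msx2 to Dlx5 from -3.40 to -2.34. Each of these ratios was higher in every dexamethasone library than in any control library. The ratio of Msx1 to Msx2 was 0.42 ± 0.143 in control and 0.21 ± 0.124 in dexamethasone libraries (SD, n = 3 each), with overlapping groups (exact p = 0.2). For the other 6 pairs the exact two-sided permutation test gave its smallest possible p of 0.1, or 0.117 after Benjamini-Hochberg adjustment over the 7 pairs, so the test could not reach 0.05 for any of them.

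**Figure D4:**
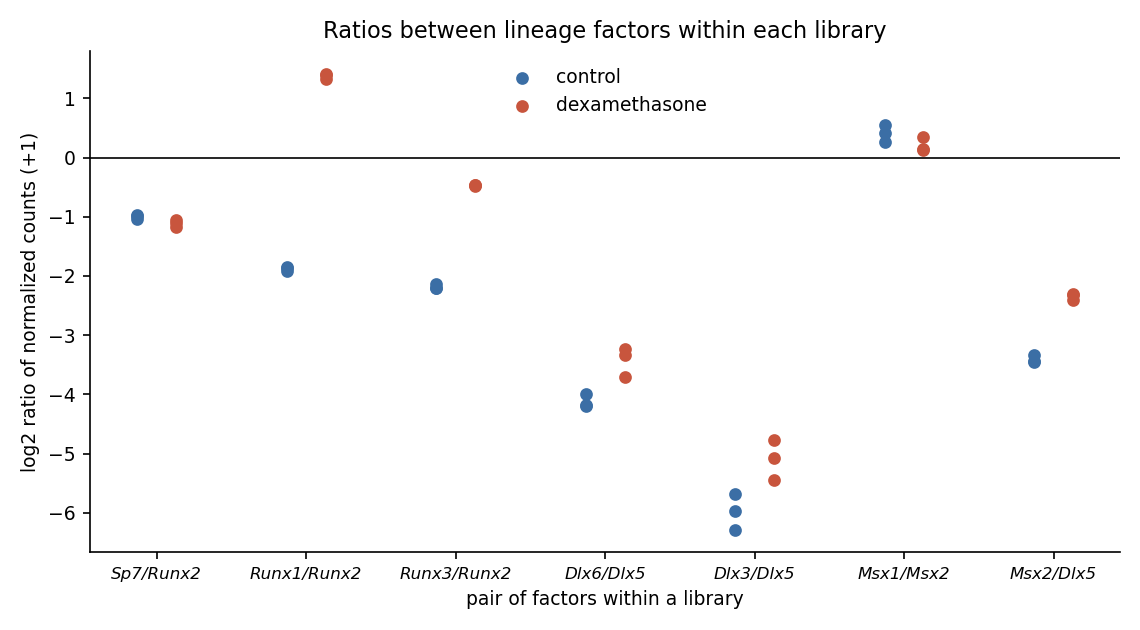
Log2 ratio of the normalized counts (+1) of 7 pairs of lineage factors within each library, with control libraries in blue and dexamethasone libraries in red (n = 3 per group). The ratio of Runx1 to Runx2 lies below 0 in all control and above 0 in all dexamethasone libraries, and only the points of Msx1 to Msx2 overlap between the groups.

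The relatives of these factors outside the set were examined next. Of 12 other DLX and SP genes, 10 were in the table and 8 were tested. Of these, 1 was differentially expressed, against 22.3% of all genes tested. On the adjusted p-value alone 2 were higher and 4 lower, against 37.2% and 35.2%, with a median log2FC of -0.46. Sp8, a zinc finger factor of limb outgrowth, fell from 396 to 112 normalized counts, a log2FC of -1.81 (limma adjusted p = 5.14e-14), close in size to that of Sp7. The widely expressed Sp1 and Sp3 had log2FC values of 0.32 and 0.17 (limma adjusted p = 1.29e-08 and 7.53e-05). Both depended on the scaling: with all libraries at the same total Sp1 was at 0.20 and Sp3 at 0.057 (limma adjusted p = 0.0725), and after quantile normalization Sp1 was at 0.099 and Sp3 at 0.010 (limma adjusted p = 0.748). Dlx1 and Dlx2, which like Dlx5 and Dlx6 are a linked pair, had log2FC values of -0.40 and -0.64 (limma adjusted p = 3.87e-06 and 2.03e-10), and Dlx4, the linked neighbour of Dlx3 with a mean of 39.8 normalized counts in control libraries, one of -0.51 (limma adjusted p = 0.0876).

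The partner proteins of RUNX2 include coactivators, corepressors and enzymes that mark RUNX2 for degradation. Of 20 such genes, 19 were in the table and tested. Of these, 1 was differentially expressed higher and 2 lower, against 11.7% and 10.6% of all genes tested. On the adjusted p-value alone 12 were higher and 6 lower, against 37.2% and 35.2%. The median log2FC of the list was 0.40. Wwtr1, which encodes the coactivator TAZ, rose from 9328 to 27619 normalized counts, a log2FC of 1.57 (limma adjusted p = 8.28e-23). The corepressor genes Tle4 and Zfp521 fell by 1.30 and 1.40 on the log2 scale (limma adjusted p = 3.43e-11 and 6.97e-20). Under the cut-off, Tle1 had a log2FC of 0.95 and Tle2 one of -0.98, so members of the Groucho corepressor family had both signs. Tle2 passed the cut-off with all libraries at the same total (-1.09), after quantile normalization (-1.08), with edgeR and without control replicate 1 or dexamethasone replicate 3 (-1.01 each). Smurf2, a ubiquitin ligase, had a log2FC of 0.40.

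Other transcription factors with a role in osteoblasts formed a list of 24 genes, of which 23 were in the table and 22 were tested. Of these, 3 were differentially expressed higher and 6 lower, against 11.7% and 10.6% of all genes tested, and the median log2FC was -0.24. Fosl2, an AP-1 subunit, fell from 27453 to 9646 normalized counts, a log2FC of -1.51 (limma adjusted p = 4.58e-22). Trps1, a GATA-type repressor, and Mef2c, which acts in osteocytes, had log2FC values of -1.15 and -1.52 (limma adjusted p = 3.59e-19 and 1.5e-20). Cebpb, a basic leucine zipper factor that also acts in adipocytes, rose from 1989 to 4915 normalized counts, a log2FC of 1.30 (limma adjusted p = 1.21e-17). Larger rises at lower levels were found for Etv1, from 120 to 923 normalized counts (log2FC 2.95), and Zbtb16, from 0 to 42.8 (log2FC 5.45). Prrx1, a mesenchymal homeodomain factor, had a log2FC of -0.86, and Atf4, needed for protein synthesis in osteoblasts, one of 0.23, both under the cut-off.

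Known target genes of RUNX2 or SP7 were mostly lower, with exceptions of large size. Of 24 targets, 22 were in the table and tested. Of these, 4 were differentially expressed higher and 12 lower, against 11.7% and 10.6% of all genes tested, and the median log2FC was -1.15. Bglap, Spp1, Col1a1, Col1a2, Alpl, Ibsp, Pth1r and Dmp1 are among the targets that were also counted as osteoblast or osteocyte markers above. The type I collagen gene Col1a1 fell from 961923 to 261192 normalized counts, a log2FC of -1.88. Alpl, the alkaline phosphatase of mineralizing cells, Ibsp, a matrix sialoprotein, and Pth1r, the parathyroid hormone receptor, had log2FC values of -2.45, -1.27 and -2.20. Tnfrsf11b, which encodes the osteoclast inhibitor osteoprotegerin, had one of -1.79 and Fgfr2, a growth factor receptor, one of -2.74. In the opposite direction, Spp1 (osteopontin) rose from 33595 to 1279674 normalized counts, Dmp1, an osteocyte matrix protein gene, from 38.5 to 5639, Mmp13, a collagenase gene, from 158 to 430.4, and Enpp1, which makes pyrophosphate, from 2.46 to 273. The limma adjusted p-values of these 10 named targets lay below 0.05.

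**Figure D5:**
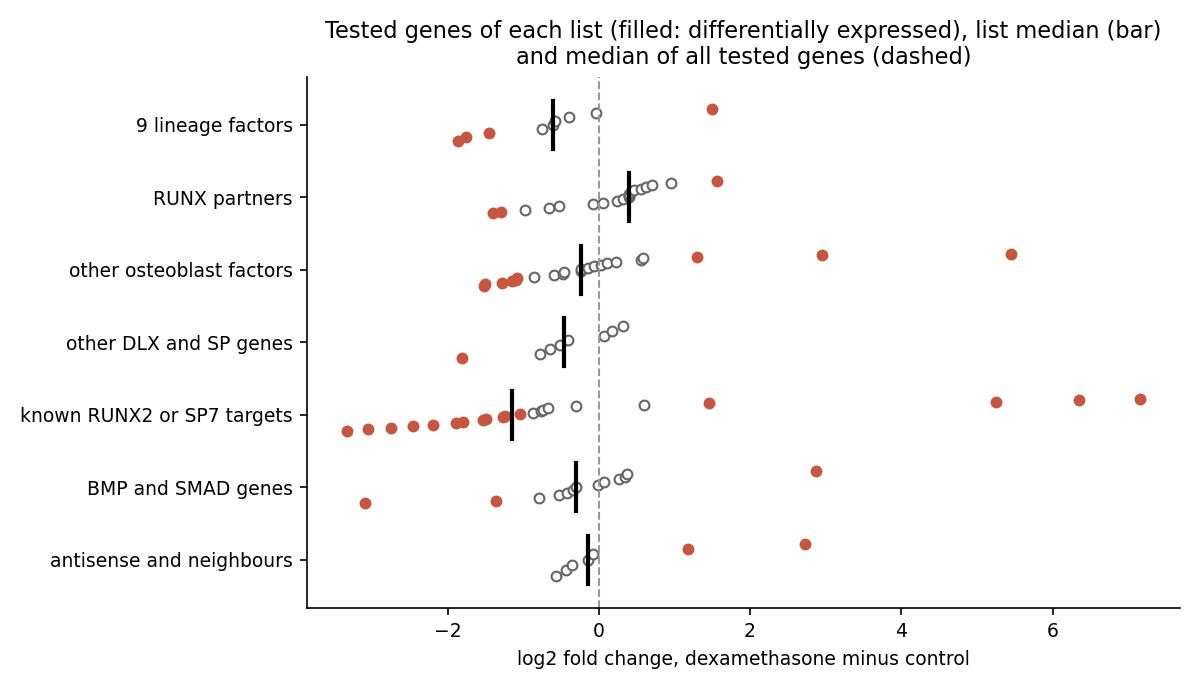
Log2 fold change, dexamethasone minus control, of every tested gene in the set of 9 lineage factors and in 6 related lists, with filled points for differentially expressed genes, a bar at the median of each list and a dashed line at the median of all tested genes. The target list has its median at -1.15 with 12 filled points on the lower and 4 on the higher side, and the RUNX partners have theirs at 0.40.

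The BMP pathway induces the DLX and MSX genes. Of 17 BMP and SMAD genes, 16 were in the table and 13 were tested. Of these, 1 was differentially expressed higher and 2 lower, against 11.7% and 10.6% of all genes tested, with a median log2FC of -0.30. The ligand gene Bmp4 fell from 5876 to 686 normalized counts, a log2FC of -3.10 (limma adjusted p = 1.7e-25). The inhibitory Smad6 had a log2FC of -1.35, and Id1, a direct target of BMP signalling, rose from 632 to 4631 normalized counts, a log2FC of 2.87. The related BMP targets Id2 and Id3 had log2FC values of -0.80 and -0.41 (limma adjusted p = 1.34e-13 and 1.09e-09), opposite to Id1. The receptor genes Bmpr2 and Bmpr1a had log2FC values of -0.35 and -0.30, under the cut-off.

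The genes next to the factors on the chromosome were examined as well. Of 13 neighbours and antisense transcripts, 10 were in the table and 7 were tested. Of these, 2 were differentially expressed higher and 0 lower, against 11.7% and 10.6% of all genes tested. On the adjusted p-value alone 2 were higher and 2 lower, against 37.2% and 35.2%. Supt3, a subunit gene of a transcription coactivator complex, overlaps the Runx2 gene on the opposite strand. It rose from 533 ± 29.1 to 1207 ± 29.5 normalized counts (SD, n = 3 each), a log2FC of 1.18 (limma adjusted p = 5.95e-15). The noncoding Runx2os2, also opposite to Runx2, rose from 12.1 ± 3.67 to 83.1 ± 4.74 (SD, n = 3 each), a log2FC of 2.72, whereas Runx2os1 had a log2FC of -0.36 (limma adjusted p = 0.188). Dlx6os1, the noncoding transcript opposite to Dlx6, was at 286 and 270.4 normalized counts, a log2FC of -0.08 (limma adjusted p = 0.434), beside -1.45 for Dlx5 and -0.75 for Dlx6. The more distant neighbours Sem1 and Sdhaf3 had log2FC values of -0.43 and -0.57. The study's methods name a stranded library kit, but because the strand setting of the counting was not stated, reads of overlapping opposite genes may not have been separated.

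The genes with the profile most like those of Runx2 and Sp7 were found by the Euclidean distance between log2 values, centred on their own mean, over the 6 libraries and 11923 genes whose mean normalized count reached 100. For Runx2 they were Col5a2, a fibrillar collagen gene, at a distance of 0.0600, Cavin4, a caveolar protein gene, at 0.0694 and Tnfrsf11b at 0.0705. For Sp7 they were Mxd4, a MYC network repressor gene, at 0.0674, Cnn2, an actin-binding calponin gene, at 0.0790 and Nid2, a basement membrane gene, at 0.0804. Sp7 ranked 30 for Runx2 and Runx2 ranked 20 for Sp7, at a distance of 0.164. With 2 groups of 3 libraries, this distance mainly finds genes with a similar fold change.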

How the data were processed

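RNA sequencing of 6 mouse libraries, 3 control and 3 dexamethasone, was analysed. Per the paper's methods and the labels, the authors used STAR 2.7.10a for alignment and counting and DESeq2 1.36.0 for normalization; the submitters' processing notes name GRCm39. The deposited values are a signal, namely counts divided by a size factor per library, and 100% of them were whole multiples of 1 read at a tolerance of 0.01, which gave back the reads. The annotation release and strand setting are not given in the sources used here. Symbols (28087 of 29616 genes), exon lengths and overlaps came from GENCODE M21 (GRCm38), and promoters from RefSeq; no coordinates were converted between builds. Exon lengths of that annotation may differ from those of the counted one.

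The 17442 genes whose mean normalized count reached 10 were tested with limma 3.58.1 in R 4.3.3 on log2(normalized count + 1), with trend and Benjamini-Hochberg adjustment. The pseudocount makes the fold changes of low genes smaller. Cut-offs followed the paper (adjusted p 0.05, log2 fold change 1). Replicate libraries differed by more than sampling noise (chi-square divided by its degrees of freedom, 3.27 to 26.1). Alternatives were the count models of DESeq2 1.42.0 and edgeR 4.0.16, fitted to the recovered reads, other pseudocounts, filters and scalings, limma without trend, a replicate block and each library left out. On simulated data, limma recovered 97 of 100 genes changed by 1.5 on the log2 scale and 100 of 100 changed by 2.5, and called 1 unchanged gene of the 17281 genes run. In that simulation no other genes were changed, and the spread beyond sampling noise had the same setting for all genes. In the real data 22.3% of the genes tested were differentially expressed, so the simulation does not give the error rates of these data.

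The factors and gene lists were chosen with earlier results of these data known. Named genes were the 9 factors, up to 6 genes of each list with the highest mean, direct paralogues, fixed checks such as Cbfb, Bglap and Ptprc, and the 3 genes with the profile nearest to that of Runx2 or Sp7. These further genes were chosen after their values were seen: Zfp521, Tle4, Tle1, Tle2, Dmp1, Enpp1, Bmp4, Id1, Id2, Smad6, Sp8, Mef2c, Cebpb, Etv1, Zbtb16, Sox9, Sox6, Cd53, Itgb2, Laptm5, Ibsp, Alpl, Pth1r, Mmp13, Runx2os1 and Dlx6os2.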

Additional observations from a re-analysis of the deposited data

How the results depend on the processing

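The 4 differentially expressed factors stayed so, in the same direction, under every alternative scaling, filter, pseudocount, count model and left-out library in which they were tested. The log2 fold change of Runx2 ranged from -1.95 to -1.72, that of Sp7 from -2.04 to -1.82, that of Dlx5 from -1.58 to -1.42 and that of Runx1 from 1.33 to 1.52. On the adjusted p-value alone, 8 of the 9 factors differed, against 72.5% of all genes tested, and 7 of them were lower, against 35.2%. The number of differentially expressed genes was 3894 (2037 higher, 1857 lower). It was 2170 (1350 higher, 820.0 lower) where the mean normalized count had to reach 100, which tests fewer genes, and 12645 (6497 higher, 6148 lower) on the adjusted p-value alone. With all libraries at the same total, the split was 1775 higher and 2163 lower, and the median of all genes tested moved to -0.11. It moved to -0.07 after quantile normalization. The medians of the gene lists above were given at the main scaling only, and scaling to the same total shifts them along with all genes. The replicate numbers did not pair the libraries (correlations of same-numbered libraries -0.0999, -0.105 and -0.0199), and with a replicate block 4 of the 9 factors were differentially expressed, as without it. Dlx3 lost its adjusted p under 0.05 with DESeq2 (0.0573), without trend (0.0695), without a filter (0.0520) and after quantile normalization (0.0736), and it was not tested at a mean of at least 100. Its low read count limits the precision. The RUNX sum had a log2 ratio of -0.22, which was -0.36 per kilobase and -0.33 at the same total. Sox4, Sp2 and Smad5, at 0.10, 0.07 and 0.07, went to -0.010, -0.042 and -0.042 at the same total and to -0.11, -0.075 and -0.13 after quantile normalization. Acvr1, at -0.0063, ranged from -0.053 to 0.024 over the fits that left out a library. Each of these changes of sign was of a log2 fold change close to 0. Their cause was not tested beyond the scaling itself.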
